A study of Homo sapiens with 9 samples.

Results

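PC-3 is an established line of human prostate cancer cells, grown from a bone metastasis, that proliferates without androgen. The data described here are the transcriptome of the control cells, which received no decitabine and no S-adenosylmethionine (SAM). They are 3 libraries of the 9 in the series, chosen by the label Ctrl alone. The other 6 libraries came from cells treated with decitabine or with decitabine and SAM, and they were not used here. No engineered allele is given for any group. The cells were grown in RPMI 1640 medium and were taken on day 5 of the treatment course. According to the methods of the study, controls received the vehicle of the drugs, so these cells were free of drug but not of handling. Total RNA was isolated, and libraries made by a standard preparation were sequenced on the BGISEQ-500 platform. How RNA was selected for the libraries is not stated in the methods of the study. A single cell line in a single medium is a limited model of a prostate tumour, since it holds no stroma, vessels or immune cells.

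The libraries held 22489684, 22356574 and 22472743 estimated counts, spread over 24393, 24812 and 24582 gene identifiers with any count. Levels were expressed as TPM, a relative scale that divides each count by the length of the transcript and then sets all libraries to the same total, so that levels of different genes can be set side by side. At this depth 1 count on a transcript of 1000 bases was worth about 0.092 TPM. A gene was called expressed at a mean of at least 1 TPM over the 3 libraries, low between 0.1 and 1 TPM, and silent under 0.1 TPM. Nothing in the labels says whether the 3 libraries came from separate cultures, so each SD measures the spread between these libraries, which may be technical. With 1 group there was nothing to test. A sign test over 3 libraries could not have gone below p = 0.25 in an exact two-sided form.

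Of 19892 protein-coding genes, 11981 were expressed (60.2%), 2003 were low (10.1%) and 5908 were silent (29.7%). No count at all was found in any library for 3437 of them (17.3%). The median of the expressed genes was 20.5 TPM, 8277 genes reached 10 TPM, 1630 reached 100 TPM and 129 reached 1000 TPM. Long non-coding RNAs were sparser, with 1615 of 16739 expressed and 11608 silent.

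As background, the normal prostate gland has a luminal layer that secretes in response to androgen, a basal layer marked by p63 and keratins 5 and 14, and rare neuroendocrine cells. Carcinoma cells can lose luminal traits, gain mesenchymal ones by the epithelial-mesenchymal transition (EMT), or gain neuroendocrine ones. The label of PC-3 was checked against 4 markers. The intermediate filament gene VIM (vimentin, ENSG00000026025, chr10:17228241-17237593 in GRCh38) stood at 1046, 1115 and 1098 TPM in the 3 libraries. KRT8 (ENSG00000170421, chr12:52897187-52949954) stood at 111, 130 and 132 TPM, and its partner keratin KRT18 (ENSG00000111057, chr12:52948871-52952906) at 571, 576 and 529 TPM. KLK3 (ENSG00000142515, chr19:50854915-50860764), which encodes prostate-specific antigen, had 0 counts in all 3, which allows up to 0.189 TPM in a library. Simple-epithelial keratins were thus found together with vimentin, and the secretory product of the luminal layer was not detectable at this depth. In bulk RNA, fewer cells of a type and less RNA per cell cannot be told apart, so these data do not say whether 1 cell held both.

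**Figure D1:**
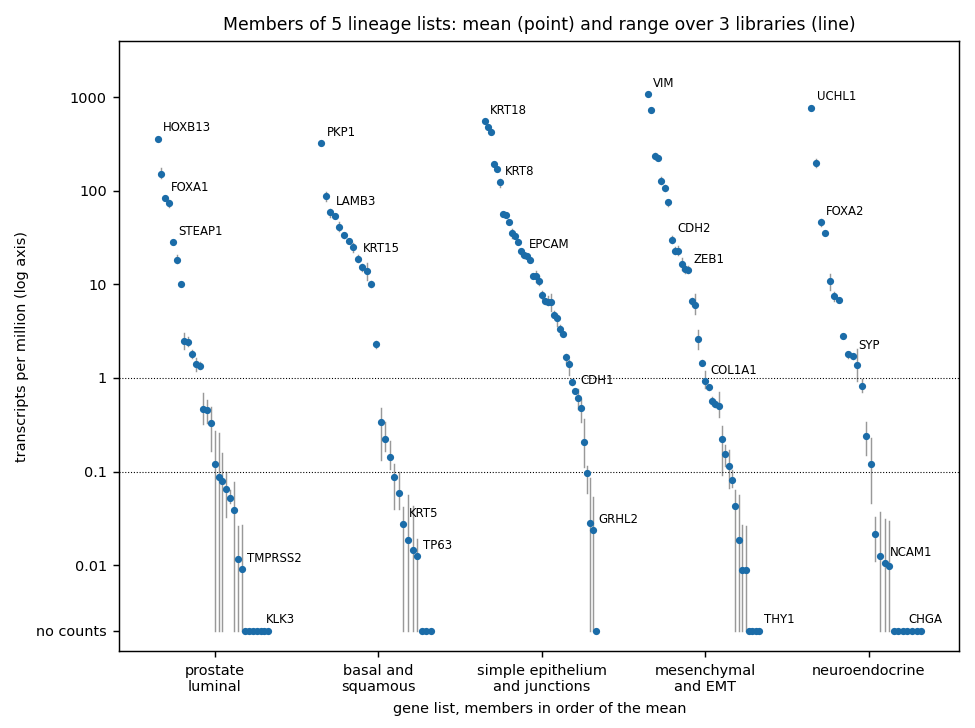
Level in TPM (log axis) of each member of 5 lineage lists, members in order of their mean; points are means of the 3 control libraries, lines run from the lowest to the highest library, libraries without counts are drawn at the bottom, and dotted lines mark 1 and 0.1 TPM. VIM led at 1086 TPM, while KLK3, THY1 and CHGA had no counts.

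Promoter sequence is shown for 4 of the genes described here, since the study concerned DNA methylation, which in human cells falls on cytosines followed by guanine (CpG). Each is the 250 bases before the transcription start in RefSeq (build GRCh38.p14), 5′ to 3′ on the strand of the gene, with every CpG in capitals. MT2A (metallothionein) and AXL (a receptor tyrosine kinase) were expressed, and CHGA (chromogranin A) and KLK3 were silent. In each pair the first promoter is dense in CpG and the second is poor.
MT2A, chr16:56608334-56608583, plus strand: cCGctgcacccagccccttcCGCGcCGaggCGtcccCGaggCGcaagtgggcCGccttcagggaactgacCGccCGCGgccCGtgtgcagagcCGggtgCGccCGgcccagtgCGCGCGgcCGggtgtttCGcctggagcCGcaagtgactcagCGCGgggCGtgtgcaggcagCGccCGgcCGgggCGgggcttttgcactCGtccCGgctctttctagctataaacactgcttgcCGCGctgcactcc
AXL, chr19:41218973-41219222, plus strand: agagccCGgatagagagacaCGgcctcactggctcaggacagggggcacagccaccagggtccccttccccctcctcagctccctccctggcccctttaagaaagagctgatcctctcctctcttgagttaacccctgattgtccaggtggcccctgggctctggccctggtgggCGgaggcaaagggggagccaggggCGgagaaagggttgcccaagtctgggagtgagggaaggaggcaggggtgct
CHGA, chr14:92922900-92923149, plus strand: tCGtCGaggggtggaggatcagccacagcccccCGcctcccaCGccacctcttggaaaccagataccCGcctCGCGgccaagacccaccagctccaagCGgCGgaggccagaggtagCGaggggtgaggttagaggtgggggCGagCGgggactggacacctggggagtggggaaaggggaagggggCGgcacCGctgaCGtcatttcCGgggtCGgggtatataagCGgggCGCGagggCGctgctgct
KLK3, chr19:50854665-50854914, plus strand: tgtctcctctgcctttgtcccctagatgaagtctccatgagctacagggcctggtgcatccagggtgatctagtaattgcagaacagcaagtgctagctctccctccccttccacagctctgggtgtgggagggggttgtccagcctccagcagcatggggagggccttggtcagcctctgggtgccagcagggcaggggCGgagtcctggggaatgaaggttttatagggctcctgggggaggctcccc
The MT2A window held 32 CpG and the AXL window 4. CHGA held 21 and KLK3 held 1. Among 35116 promoters in the table the median was 11 CpG per 250 bases, and 90.5%, 29.3%, 69.8% and 6.06% of them held fewer than MT2A, AXL, CHGA and KLK3, in that order. These 4 were picked after their levels were seen, and no methylation was measured in the files used here. The 4 hold an expressed and a silent gene at each CpG density because of how they were chosen. They therefore do not show how CpG density relates to expression. A comparison over all genes was void, because the table held a promoter for 77.1% of the protein-coding genes, 81.6% of the expressed and 70.9% of the silent ones.

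The list of prostate luminal and androgen-linked genes held 30 members, of which 12 were expressed, 4 low and 14 silent, 7 of these without any count. The expressed share of 40% lay under the 60.2% of all protein-coding genes, and the silent share of 46.7% above their 29.7%. Transcription factors were among the highest members. HOXB13, the homeobox factor of the prostate and hindgut, stood at 352, 358 and 370 TPM (360 ± 9.38, SD, n = 3), and the pioneer factor FOXA1 at 88.8, 80.8 and 78.9 TPM. SPDEF, an ETS factor of secretory epithelium, had a mean of 74.7 ± 6.41 TPM.

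TMPRSS2, the surface protease whose promoter is often fused to ETS genes in prostate cancer, had 1 count in all. KLK2, KLK4, KLK15, MSMB, FOLH1 (prostate-specific membrane antigen) and TRPV6 had none. In contrast, the surface antigen STEAP1 stood at 28.1 ± 0.809 TPM, the transporter SLC45A3 at 10.1 ± 0.264 TPM and prostatic acid phosphatase ACP3 at 1.36 ± 0.131 TPM. The stress gene NDRG1, also induced by androgen, was second in the list at 175, 135 and 139 TPM.

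In the basal and squamous list several adhesion genes were expressed, while the defining factor and most keratins were not. Of 25 members, 13 were expressed (52%, against 60.2% of all protein-coding genes), 3 low and 9 silent (36%, against 29.7%). The plaque protein PKP1 led at 307, 324 and 330 TPM, and the hemidesmosome integrin genes ITGB4 (88.2 ± 9.28 TPM) and ITGA6 (54.4 ± 1.77 TPM) and the laminin chains LAMB3 (59.6 ± 5.77 TPM) and LAMA3 (13.8 ± 3.03 TPM). P-cadherin CDH3 had 15.3 ± 1.21 TPM. S100A2 (33.9 TPM) and JAG1 (24.85 TPM), which are not adhesion genes, were expressed as well. The defining factor and keratins of the basal layer, KRT15 apart, were at or near 0 counts. TP63 had 0, 1 and 1 counts, KRT5 had 0, 1 and 1, KRT14 had 1, 0 and 0, and KRT17 had none. The desmosomal cadherin DSG3 and the cornified envelope gene SPRR1B had no counts either. Another desmosomal cadherin of the list, DSC3, was expressed at 28.97 TPM, as were DST (10.1 TPM) and COL17A1 (2.286 TPM). KRT15 was the one basal keratin expressed, at 17.3, 20.6 and 17.8 TPM.

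Simple-epithelial and junction genes were the most widely expressed of the 5 lineage lists, with 29 of 38 expressed, 5 low and 4 silent. These were shares of 76.3% expressed and 10.5% silent, against 60.2% and 29.7% of all protein-coding genes. Behind KRT18 came KRT19 at 506, 478 and 457 TPM and the tight junction gene CLDN4 at 399, 453 and 406 TPM. The epithelial cell adhesion molecule EPCAM had 20.7 ± 1.17 TPM, and the splicing regulators of epithelia ESRP2 and ESRP1 had 20.1 ± 0.769 and 4.76 ± 0.409 TPM. KRT18 exceeded KRT8 in every library, by 5.15, 4.42 and 4.01 times, although the proteins pair with each other in filaments. The KRT8 value is uncertain, since 9.41% of the counts of KRT8 and its 51 annotated pseudogenes were placed on the pseudogenes, against 0.123% for KRT18.

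The adherens junction was uneven. β-Catenin CTNNB1 stood at 170, 166 and 174 TPM and its relative CTNND1 at 56.0 ± 3.34 TPM, whereas α-catenin CTNNA1 stood at 0.976, 0.851 and 0.869 TPM and E-cadherin CDH1 at 0.705, 0.761 and 0.707 TPM. CTNNB1 exceeded CTNNA1 190 ± 13.6 times (34.9 times at the least of the lengths tried). PC-3 is known for a deletion at CTNNA1 on chromosome 5, and its neighbours there were read beside it. HSPA9 and ETF1 on the proximal side stood at 322 ± 6.41 and 91.0 ± 2.23 TPM, SIL1 on the distal side at 5.72 ± 0.564 TPM, and LRRTM2, which lies within the span of CTNNA1 on the other strand, had 1 count in all. The regulators of epithelial fate GRHL2, OVOL1 and OVOL2 and the vesicle GTPase RAB25 were silent. The epithelial transcription factor ELF3 was expressed at 12.4 TPM.

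Among mesenchymal and EMT genes, 17 of 34 were expressed, 8 low and 9 silent. These were shares of 50% expressed and 26.5% silent, against 60.2% and 29.7% of all protein-coding genes. VIM was first, and integrin β1 ITGB1 was second at 705, 701 and 764 TPM. Cadherins of mesenchymal cells were present, with CDH11 at 117, 130 and 139 TPM and N-cadherin CDH2 at 27.8, 29.3 and 33.1 TPM. CDH2 exceeded CDH1 by 39.4, 38.5 and 46.8 times in the 3 libraries, a ratio that fell to 10.7 at the least of the lengths tried. The EMT factors SNAI2 (22.8 ± 1.82 TPM), TWIST1 (22.5 ± 2.73 TPM) and ZEB1 (14.2 ± 1.31 TPM) were expressed, SNAI2 and TWIST1 with overlapping ranges and ZEB1 below both. SNAI1 was at 2.59 ± 0.626 TPM, ZEB2 was low at 0.57 TPM, and TWIST2 had no counts. Genes of fibroblasts and their matrix were mixed. THY1, FAP and PRRX1 had no counts and DCN, LUM, POSTN and MMP2 were under 0.1 TPM, whereas COL6A1 (235 ± 19.2 TPM), COL5A1 (6.71 ± 0.646 TPM), SPARC (6.05 ± 1.66 TPM) and ACTA2 (1.45 ± 0.0979 TPM) were expressed and PDGFRB was low. The fibrillar collagens COL1A1, COL3A1 and COL1A2 were low, at 0.93, 0.53 and 0.22 TPM.

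Of 25 neuroendocrine genes, 11 were expressed, 3 low and 11 silent. The expressed share of 44% lay under the 60.2% of all protein-coding genes, and the silent share of 44% above their 29.7%. UCHL1, a neuronal deubiquitinase, stood at 790, 769 and 753 TPM. The imprinted retroelement-derived gene PEG10 had 196 ± 21.9 TPM, the factor FOXA2 42.0, 47.2 and 49.95 TPM, and the neural factor POU3F2 6.73 ± 0.440 TPM. Secretory granule and vesicle genes were uneven, with SYT1 at 10.8 ± 2.10 TPM, SCG5 at 1.36 ± 0.584 TPM and SCG2 low. CHGA, INSM1, NEUROD1, GRP and CALCA had no counts in any library, CHGB and NCAM1 had 1 and 2 counts in all, and synaptophysin SYP was at 1.70 ± 0.0968 TPM. For CHGA, 0 counts allow up to 0.139 TPM.

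**Figure D2:**
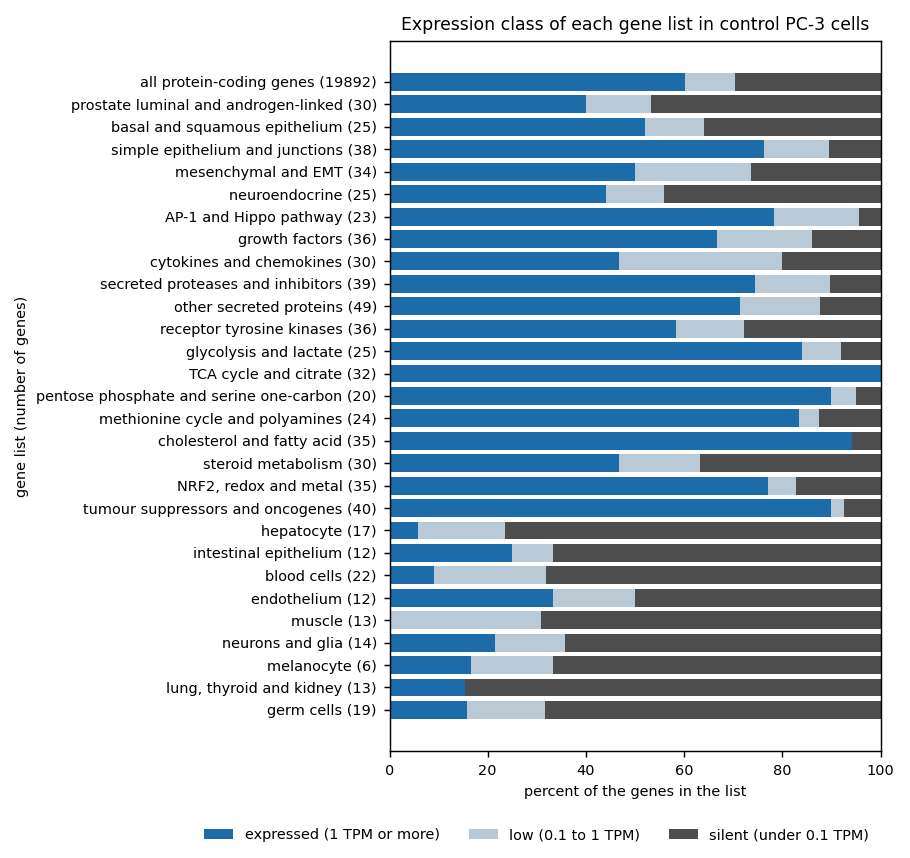
Share of each gene list (percent, with the number of genes in parentheses) that was expressed, low or silent in the control libraries, with all protein-coding genes on top. The tricarboxylic acid cycle list was expressed throughout, and the lists for hepatocytes, muscle, and lung, thyroid and kidney were mostly silent.

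Genes of other tissues were mostly silent, with a few exceptions in most lists and more in the endothelial list. Of all protein-coding genes 29.7% were silent and 60.2% expressed. The silent share was 76.5% in the hepatocyte list, 68.2% in blood cells, 69.2% in muscle and 50% in endothelium. In the hepatocyte list 13 of 17 were silent and SERPINA1 (α1-antitrypsin) was the only one expressed, at 4.76, 5.54 and 7.51 TPM. Blood cell genes were silent in 15 of 22 cases, with PTPRC at 0.029 TPM and CD3E and MS4A1 without counts, and with CD68, a lysosomal protein not limited to macrophages, at 47.3 ± 5.33 TPM. None of 13 muscle genes was expressed. Of 12 endothelial genes 4 were expressed, 2 low and 6 silent. CDH5, VWF and CLDN5 were silent, while ROBO4 (8.03 ± 0.115 TPM), KDR (5.26 ± 0.2001 TPM), ENG (2.825 TPM) and PECAM1 were expressed. In the neuronal list the light neurofilament chain NEFL stood at 140, 149 and 161 TPM, and its partner NEFM had no counts.

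Thyroglobulin TG had 12.1 ± 1.22 TPM with the thyroid and kidney factor PAX8 at 4.23 ± 0.373 TPM and the thyroid and lung factor NKX2-1 silent. Intestinal genes were silent in 8 of 12 cases (66.7%, against 29.7% of all protein-coding genes), CDX1 and CDX2 among them. The peptidase ANPEP stood at 105 ± 15.7 TPM and the lectin REG4 at 35.2 ± 4.78 TPM. Of the 19 germ cell genes, 13 were silent (68.4%, against 29.7% of all protein-coding genes) and 3 expressed. The cancer-testis gene MAGEA3 stood at 171, 167 and 186 TPM, and its near-identical neighbour MAGEA6 at 171, 170 and 180 TPM, so the split of reads between them is uncertain, while MAGEA1 was at 0.83 TPM.

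The highest levels belonged to mitochondria, ribosomes and a small set of cytosolic proteins. Mitochondrially encoded genes took 4.31% ± 0.481 of the counts and 8.35% ± 0.978 of the TPM (n = 3), and 83 cytosolic ribosomal protein genes took 5.88% ± 0.353 of the counts and 14.02% ± 0.691 of the TPM. Among transcripts of at least 300 bases, the 100 highest genes held 30.3% ± 0.513 of the TPM, and were 11 mitochondrial genes, 43 ribosomal protein genes and 46 others. Shorter transcripts, whose TPM is less certain, were left out of this order, MT-ND4L (5296 TPM) and MT-ATP8 (1359 TPM) among them. MT-CO1, a subunit of cytochrome c oxidase, was first at 19237, 22156 and 23294 TPM. RPS24, a protein of the small ribosomal subunit, was second at 13913, 14782 and 14073 TPM with the canonical length, but had 1737 TPM with merged exons and 5869 TPM with the median transcript, below FTH1 at 13185 and 9348 TPM. The order was loose between libraries too, since the ranges of neighbours over the libraries overlapped in 26 of 29 steps among the 30 highest genes.

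Without mitochondrial and ribosomal genes the order began with FTH1, the heavy chain of the iron store ferritin, at 12077, 12061 and 12766 TPM. The glycolytic enzyme GAPDH followed at 4933, 5128 and 5201 TPM, then tubulin TUBA1B (4408 ± 419 TPM), the elongation factor EEF1A1 (4385 ± 63.3 TPM), actin ACTB (4139 ± 55.6 TPM) and enolase ENO1 (4120 ± 50.8 TPM). FTH1 and GAPDH were each set apart from the next gene in all libraries, but TUBA1B overlapped with EEF1A1, and ACTB with ENO1. Next came the actin-binding peptide TMSB10 (3686 ± 116 TPM), the nucleoside diphosphate kinase NME2 (3533 ± 123 TPM), the calcium-binding protein S100A6 (3393 ± 257 TPM) and annexin ANXA2 (3202 ± 156 TPM). In this order, ranges of neighbours overlapped in 22 of 29 steps.

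**Figure D3:**
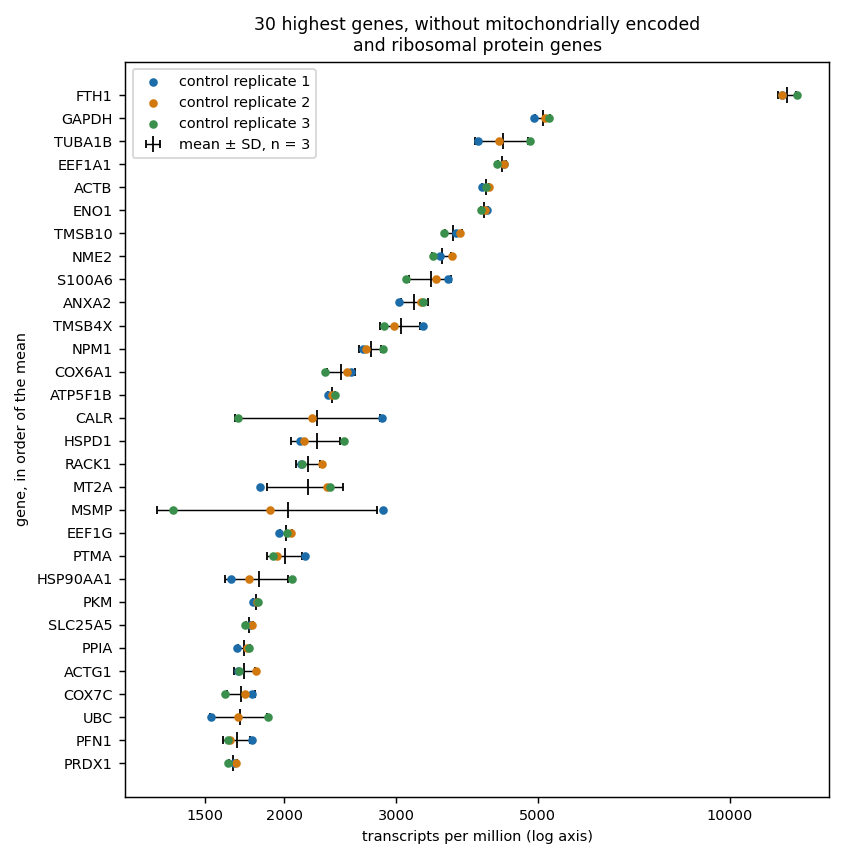
TPM (log axis) of the 30 highest genes left after mitochondrially encoded and ribosomal protein genes were set aside; coloured points are the 3 control libraries and black bars the mean ± SD. FTH1 stood alone at 12302 TPM, and MSMP and CALR had the widest spread.

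MSMP, a small secreted protein also called PC3-secreted microprotein, was the 19th of these genes, at 2853, 1903 and 1337 TPM (2031 ± 766). The value is uncertain, because all 677 bases of its transcript lie within exons of RGP1 on the opposite strand (chr9:35752990-35756613), and without strand the reads of both genes cannot be told apart by position. RGP1 was given 41.8, 33.6 and 32.9 TPM, so its level was also highest in replicate 1. The hair keratin KRT81 was the highest of all keratins at 869, 1224 and 1145 TPM.

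Of the long non-coding RNAs, the highest was ENSG00000283907 on chromosome 19 at 1830, 758 and 1351 TPM, a transcript of 375 bases that varied between the libraries by more than any other of the 10 highest. The snoRNA host genes SNHG29 (917 ± 50.5 TPM), SNHG16 (650 ± 36.1 TPM) and SNHG1 (192 ± 6.78 TPM), the intergenic RNAs LINC03061 (294 ± 51.5 TPM), LINC00342 (213 ± 15.2 TPM) and LINC02582 (204 ± 1.42 TPM), and LNCAROD (264 ± 20.4 TPM), FGD5-AS1 (240 ± 17.1 TPM) and NORAD (180 ± 7.52 TPM) made up the rest. With merged exons SNHG29 had 81.1 TPM, SNHG16 100.1 TPM and NORAD 322 TPM, so the order of these RNAs depends on the length. FGD5-AS1 is antisense to a coding gene, and strand is not stated.

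As background, cancer cells act on their surroundings through secreted growth factors, cytokines, proteases and matrix proteins, and prostate cancer often spreads to bone. Of 36 growth factors 24 were expressed (66.7%, against 60.2% of all protein-coding genes), 7 low and 5 silent (13.9%, against 29.7%). The Wnt inhibitor DKK1, which blocks bone formation by osteoblasts, led at 648, 595 and 590 TPM, ahead of midkine MDK at 488, 579 and 537 TPM and GDF15 at 143, 129 and 116 TPM. DKK1 and MDK did not overlap. TGFB1 had 60.5 ± 1.69 TPM, the vascular factors VEGFA, VEGFC and VEGFB had 39.3 ± 5.20, 38.3 ± 2.30 and 32.8 ± 2.57 TPM, and the parathyroid hormone-like PTHLH, a factor of bone metastasis, had 14.1 ± 0.699 TPM. Ligands of the EGF receptor were present in part, with AREG at 29.1 ± 4.35, HBEGF at 12.3 ± 1.81 and TGFA at 11.3 ± 1.55 TPM, EREG low and EGF silent. HGF, IGF1 and BMP7 were silent and NRG1 had no counts.

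Of 30 cytokines and chemokines, 14 were expressed (46.7%, against 60.2% of all protein-coding genes), 10 low and 6 silent (20%, against 29.7%). The broadly expressed MIF led at 1186 ± 61.8 TPM. IL18 had 95.7, 82.6 and 83.6 TPM, the neutrophil chemokine CXCL8 52.2, 54.3 and 43.1 TPM, LIF 36.1 ± 2.30 TPM and IL1B 27.1 ± 4.22 TPM. IL6 was low at 0.71 TPM, and TNF, CXCL12 and CXCL14 had no counts.

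Proteases and their inhibitors were expressed in 29 of 39 cases, with 6 low and 4 silent (7 silent without replicate 3). These were shares of 74.4% expressed and 10.3% silent, against 60.2% and 29.7% of all protein-coding genes. The inhibitors cystatin C (CST3) at 649 ± 21.8 TPM and TIMP1 at 521, 624 and 627 TPM were the highest, followed by cathepsin D (CTSD) at 335 ± 33.2 TPM and the urokinase PLAU at 217, 241 and 273 TPM. The urokinase receptor PLAUR was expressed at 63.8 ± 6.33 TPM, and PLAU exceeded its receptor 3.83 ± 0.483 times. Among matrix metalloproteinases MMP14 (75.5 ± 7.33 TPM), MMP1 (50.8 ± 3.49 TPM) and MMP13 (9.33 ± 0.899 TPM) were expressed, MMP9 was low at 0.13 TPM, and MMP2 and MMP7 were silent. TIMP3 had 1 count in all, against 152 ± 27.4 TPM for TIMP2.

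Of 49 other secreted or released proteins 35 were expressed (71.4%, against 60.2% of all protein-coding genes), 8 low and 6 silent (12.2%, against 29.7%). They were led by S100A6 and by galectin-1 (LGALS1) at 1529.5, 1656 and 1570.5 TPM. IGFBP4 had 423 ± 28.4 TPM and was by far the highest of the insulin-like growth factor binding proteins, with IGFBP6 at 83.6 ± 12.8, IGFBP3 at 7.60 ± 0.869 and IGFBP1 at 3.80 ± 0.673 TPM, IGFBP2 low, IGFBP5 silent and IGFBP7 without counts. Stanniocalcin STC2 was at 111, 90.9 and 96.6 TPM and its relative STC1 was low at 0.74 TPM. The inflammatory proteins S100A7, S100A8 and SAA1 and the bone protein SPP1 had no counts.

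Receptor tyrosine kinases pass the signals of growth factors into the cell. Of 36 receptor tyrosine kinases 21 were expressed, 5 low and 10 silent, shares of 58.3% expressed and 27.8% silent that lie near the 60.2% and 29.7% of all protein-coding genes. The ephrin receptor EPHA2 led at 359, 337 and 321 TPM, followed by the HGF receptor MET at 94.3, 92.7 and 104 TPM, EPHB4 at 80.6 ± 1.71 TPM, AXL at 69.5, 80.1 and 78.2 TPM, RYK at 32.1 ± 1.58 TPM and EGFR at 22.9, 26.9 and 30.7 TPM. IGF1R had 2.48 ± 0.147 TPM and INSR 7.28 ± 0.607 TPM. KIT, RET, FLT1 and FGFR2 were silent. The AXL ligand GAS6 was expressed at 12.9 ± 0.830 TPM, while HGF was silent beside its receptor.

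The AP-1 and Hippo list was expressed in 18 of 23 cases (78.3%, against 60.2% of all protein-coding genes). FOSL1, an AP-1 subunit, stood out at 430, 472 and 467 TPM. FOSL1 exceeded JUN by 8.56, 8.26 and 7.32 times, and FOS was low at 0.95 TPM. The Hippo effectors WWTR1 (70.0 ± 4.21 TPM) and YAP1 (47.3 ± 0.786 TPM) and their partner TEAD4 (36.7 ± 3.603 TPM) were expressed, and of their targets CCN1 had 65.2, 58.8 and 39.4 TPM and ANKRD1 was low.

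Enzymes of glycolysis were high and varied little. Of 25 genes of glycolysis and lactate 21 were expressed (84%, against 60.2% of all protein-coding genes), 16 of them at 100 TPM or more. The median of the list was 163 TPM against 4.74 TPM over all protein-coding genes, and the median coefficient of variation (CV) of its members above 10 TPM was 3.18%. After GAPDH and ENO1 came PKM at 1786, 1810 and 1818 TPM, LDHA at 1382 ± 41.2 TPM, ALDOA at 1371 ± 42.4 TPM and LDHB at 1121 ± 25.2 TPM. LDHA exceeded LDHB 1.23 ± 0.0561 times. The early steps were lower, with the glucose transporter SLC2A1 at 34.5 ± 3.15 TPM, HK1 at 357 ± 33.8 TPM, HK2 at 74.8 ± 3.12 TPM and the phosphofructokinases PFKM, PFKP and PFKL at 163 ± 5.31, 152 ± 7.78 and 103 ± 2.28 TPM. The liver form PKLR and the neuronal transporter SLC2A3 were silent.

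**Figure D4:**
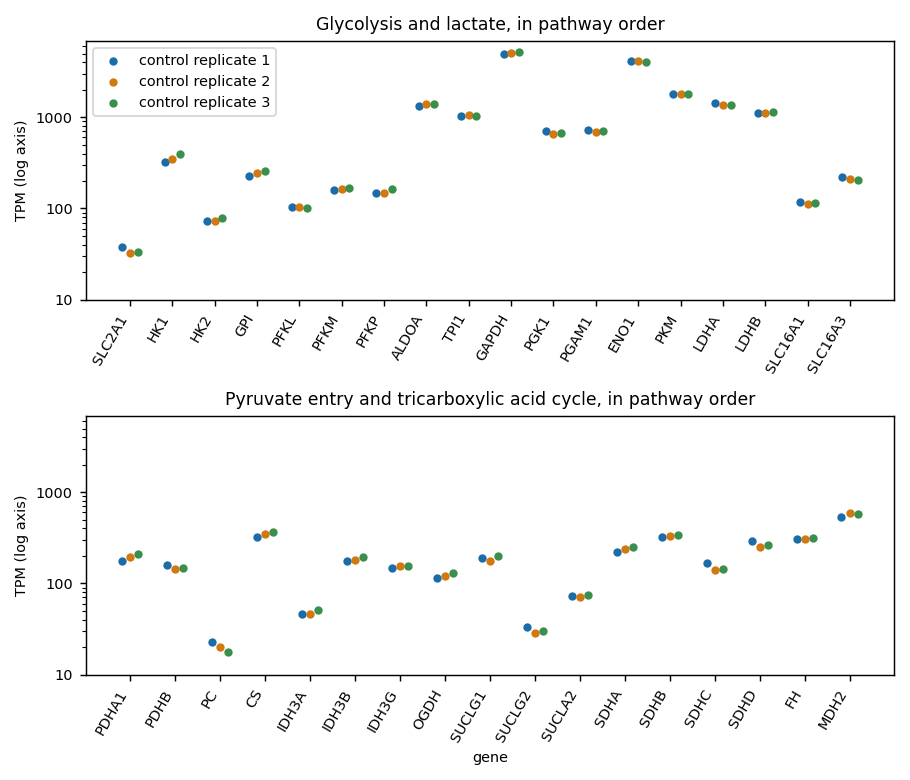
TPM (log axis) of enzymes and transporters in pathway order for glycolysis with lactate handling (top) and for pyruvate entry with the tricarboxylic acid cycle (bottom); coloured points are the 3 control libraries. Glycolysis ran from 34.5 TPM at SLC2A1 to 5088 TPM at GAPDH, and the libraries lay close together at each gene.

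All 32 genes of the tricarboxylic acid (TCA) cycle and citrate list were expressed, against 60.2% of all protein-coding genes. The luminal prostate is known to make and export citrate and to store zinc. Citrate synthase CS stood at 323, 351 and 369 TPM. The zinc importer SLC39A1 stood at 132, 124 and 129 TPM, while SLC39A2 was silent. MDH2 was the highest of the list at 566 ± 27.2 TPM.

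The pentose phosphate and serine pathways were expressed in 18 of 20 cases (90%, against 60.2% of all protein-coding genes). Their median CV was 6.83% above 10 TPM. SHMT2 stood at 529, 458 and 409 TPM, PHGDH at 429, 375 and 337 TPM, PSAT1 at 298, 224 and 207 TPM and asparagine synthetase ASNS at 193, 148 and 121 TPM, all of them highest in replicate 1.

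SAM, the methyl donor used on other libraries of the series, is made and spent by the methionine cycle. In the control cells 20 of 24 genes of this cycle and of polyamine synthesis were expressed (83.3%, against 60.2% of all protein-coding genes). MAT2A, which makes SAM outside the liver, stood at 298, 332 and 347 TPM and its partner MAT2B at 66.5 ± 4.63 TPM, while the liver form MAT1A was silent. AHCY, which clears the product of methylation, had 507 ± 8.05 TPM. The polyamine enzymes ODC1 (709, 700 and 713 TPM), SRM (533 ± 6.92 TPM) and SMS (312 ± 14.1 TPM) were high, AMD1 had 47.2 ± 0.998 TPM, and the salvage enzyme MTAP 41.8 ± 2.70 TPM. NNMT, which uses SAM to methylate nicotinamide, had 18.5 ± 0.882 TPM, GNMT was low at 0.40 TPM and BHMT was silent.

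Lipid synthesis genes were expressed in 33 of 35 cases (94.3%, against 60.2% of all protein-coding genes). FABP5, a fatty acid carrier, was the highest at 558, 436 and 585 TPM, the sterol enzyme FDPS had 257 ± 7.63 TPM, fatty acid synthase FASN 95.1 ± 6.40 TPM, and the nuclear receptor PPARG 125 ± 7.17 TPM. The fatty acid receptor CD36 was silent. Steroid metabolism was sparser, with 14 of 30 expressed (46.7%, against 60.2%), 5 low and 11 silent (36.7%, against 29.7% of all protein-coding genes). CYP17A1, CYP11A1, HSD3B1, HSD3B2, SRD5A2 and UGT2B17, which make or clear androgens, had no counts, nor had the estrogen receptor ESR1. SRD5A1 (5.69 ± 0.260 TPM) and AKR1C3 (3.603 ± 0.785 TPM) were expressed, and the glucocorticoid receptor NR3C1 had 12.6 ± 0.887 TPM.

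In the list of redox and metal genes 27 of 35 were expressed, 2 low and 6 silent. These were shares of 77.1% expressed and 17.1% silent, against 60.2% and 29.7% of all protein-coding genes. Metallothionein MT2A stood at 1834, 2335 and 2364 TPM, MT1X at 205 ± 10.8 TPM, and MT1E and MT1G were silent. Light chain ferritin FTL had 1248 ± 4.95 TPM, and FTH1 exceeded it 9.85 ± 0.284 times. Of the targets of NRF2, a transcription factor of the oxidant response, several were expressed, with TXNRD1 at 892 ± 38.2, NQO1 at 144 ± 3.20 and GCLM at 21.2 ± 1.41 TPM, while GPX2 was silent. GSTP1, a detoxifying enzyme whose promoter is methylated in most prostate cancers, stood at 473, 509 and 464 TPM.

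Of 40 tumour suppressors and oncogenes, 36 were expressed (90%, against 60.2% of all protein-coding genes). CDKN2A stood at 399, 326 and 272 TPM, MYC at 174, 185 and 181 TPM, and cyclin D1 CCND1 at 149 ± 10.9 TPM. The ETS factors ETV4, ETV5 and ETV1 were at 180 ± 10.4, 63.5 ± 5.18 and 32.9 ± 1.64 TPM, while ERG had 2 counts in all and MYCN none.

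Long runs of neighbouring protein-coding genes held no count in any library. Other genes within these spans were not examined. The longest run of neighbouring protein-coding genes without counts covered 50 genes on chromosome 8 from DEFB1 to FAM90A12P, 21 of them defensins and 19 FAM90A copies. A run of 25 genes on chromosome 11 (chr11:56252254-57237250) held 22 olfactory receptors, and a run of 20 on chromosome 21 from GRIK1 to KRTAP19-7 held 17 keratin-associated proteins of hair. Cornified envelope genes (14 genes from CRNN to C1orf68, chromosome 1), type I interferons (9 genes from IFNW1 to IFNA5, chromosome 9) and epidermal and hair root keratins (9 genes from KRT71 to KRT3, chromosome 12) formed further runs. The last lies near KRT81, KRT8 and KRT18 on the same chromosome.

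The 3 libraries resembled each other, with Pearson correlations of log2 TPM over genes between 0.981 and 0.986, genes not being independent replicates. Their counts still differed by more than sampling noise in every pair (chi-square over degrees of freedom 6.42 to 17.0), and no library was a duplicate. Where the mean count reached 100, in 11475 genes, the median CV was 6.31%, and 72 genes (0.627%) were over 30%. The common dispersion of edgeR was 0.00618, whose square root is a CV of 7.86%, and this spread may be technical. The dispersion lay at 0.00342 without replicate 1, 0.0106 without replicate 2 and 0.00475 without replicate 3. Among the 10 genes with the highest CV, ZNG1F, RPL22P1, RGPD5 and EIF3CL have near-identical copies among which the counting could move reads. RPL22P1 had 6.61, 575 and 573 counts, beside 14022, 14344 and 14119 for RPL22. The NF-κB inhibitor NFKBIA stood at 80.4, 39.3 and 33.2 TPM and the membrane repair gene DYSF at 0.893, 1.499 and 2.31 TPM. The others were PRSS53 and 3 loci without a symbol.

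Some of the spread fell on whole gene groups, which were picked after their values were seen. Replicate 1 of the control group stood apart in this way from replicate 3. All 18 chaperones and folding factors of the endoplasmic reticulum (ER) were highest in replicate 1 and lowest in replicate 3. Of 11981 expressed protein-coding genes, 4356 were highest in replicate 1 and 3103 were lowest in replicate 3. The chaperone HSPA5 stood at 1707, 1169 and 833 TPM, CALR at 2851, 2209 and 1694 TPM and HYOU1 at 341, 243 and 161 TPM. The median ratio of replicate 1 to replicate 3 was 1.77 for this group and 0.980 over all expressed protein-coding genes. All 10 heat shock genes, the mitochondrial HSPD1 and HSPE1 among them, ran the other way, highest in replicate 3. That library was also the highest for 5615 of the 11981 expressed protein-coding genes. HSPA8 stood at 1044, 1452 and 1757 TPM. Of 12 interferon-stimulated genes 11 were lowest in replicate 3, against 3103 of the 11981 expressed protein-coding genes. MX1 stood at 17.99, 16.6 and 7.96 TPM and IFI6 at 73.8, 57.5 and 30.9 TPM. MSMP, PSAT1 and ASNS had the same order of libraries as the ER group, and whether these moved together for a shared reason was not tested.

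**Figure D5:**
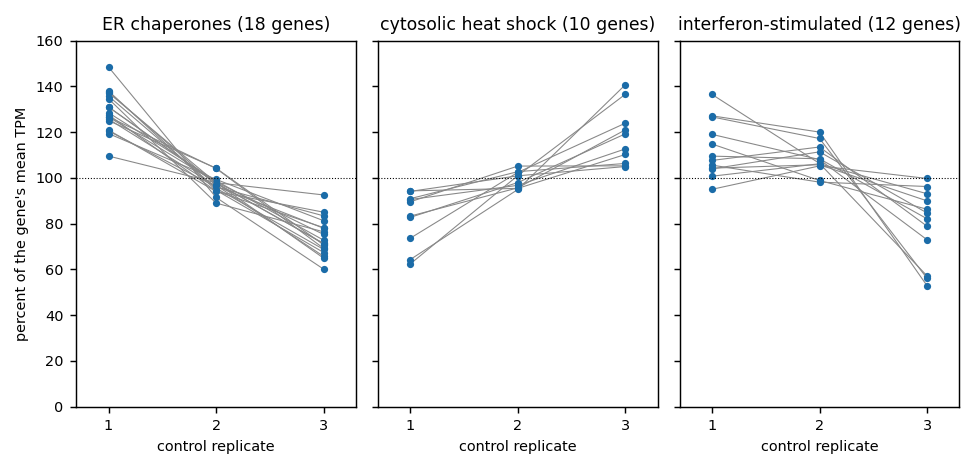
Level of each gene as a percent of its own mean TPM, for 18 ER chaperones, 10 heat shock genes and 12 interferon-stimulated genes. The 3 control libraries are shown, each line joins the values of 1 gene, and replicates have no order in time. The panel titled cytosolic heat shock includes the mitochondrial HSPD1 and HSPE1. ER chaperones were highest in replicate 1, and heat shock genes in replicate 3.

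Levels between genes depend on the length assigned to each. Among 502 named genes at 1 TPM or more, 228 moved by more than 1.5 times when the length was that of all exons merged, and 329 when it was the median over the transcripts. VIM then lay between 807 and 1107 TPM, KRT18 between 278 and 559, KRT8 between 57.6 and 124 and HOXB13 between 179 and 643 TPM. No member of a list passed from expressed to silent or back under any alternative, but 16 and 17 of 728 moved across 1 TPM under these lengths. The order of HOXB13 and FOXA1, of VEGFA and VEGFC, of SLC16A3 and SLC16A1, of LAMB3 and LAMA3 and of ETV4 and ETV5 turned with the length.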

How the data were processed

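RNA from 3 control libraries was analysed, grouped by the treatment label. The authors trimmed reads with Trim Galore 0.6.4 and counted them with kallisto on GRCh38.p13. The submitters' processing notes and the methods of the study differ on the kallisto version, which is left out. The authors deposited estimated counts per Ensembl gene identifier, not normalized. Strand and annotation release are not given in the sources used here. Of 60617 identifiers, 60357 were matched to GENCODE release 44, and the 260 unmatched held at most 0.0697% of the counts of a library.

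From the deposited estimated counts, TPM was computed here with the length of the Ensembl canonical transcript, since the effective lengths of the quantification were not used here. Means and SDs are over 3 libraries. A gene at 0 counts entered means and classes as 0 TPM. Where an upper bound is printed for such a gene, it is the level of 3 counts, which can exceed 0.1 TPM. Intervals and floors cover counting error only. The common dispersion came from edgeR 4.0.16 in R 4.3.3 on rounded counts with TMM factors. Other steps used Python 3.11.15, pandas 2.3.3 and numpy 2.4.6. Scripts were tested on simulated data. No comparison between groups was made, so no test was run.

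Rankings by TPM used transcripts of at least 300 bases. Named genes are the 30 highest, the 30 highest without mitochondrial and ribosomal protein genes, the 10 highest long non-coding RNAs, the 10 with the highest CV at a mean of at least 100 counts, the longest runs without counts, and members of 28 lists. Members and lists were chosen with earlier results of these data known. The ER, heat shock, interferon, mucosal and keratin groups, the neighbours of CTNNA1 and the near-identical copies were chosen after values were seen. Alternatives were 3 other lengths, another denominator, other thresholds, a class that every library must pass, TMM scaling, and each library left out. A few list members counted in the totals are not reported here by name.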

Additional observations from a re-analysis of the deposited data

How the results depend on the processing

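Of 152 recomputed values of the main results, 141 stayed within their limits and 11 moved. These limits were wide, so staying within them does not mean that a count was unchanged. Silent members of the prostate luminal list went from 14 to 10 under the lower thresholds. Expressed members of that list went from 12 to 9 under the higher thresholds. Both were still within the limits. The number of expressed genes lay between 11962 and 12000 with 1 library left out, and the number of silent genes between 5882 and 5953. Shares of TPM moved with the length. With merged exons, the median transcript and the canonical length less 200 bases, in that order, mitochondrially encoded genes took 14.9%, 4.15% and 9.36%, ribosomal proteins took 7.51%, 8.61% and 16.5%, and the 100 highest genes took 29.0%, 18.3% and 33.1%. The dispersion ranged from 0.00342 to 0.0106 with 1 library left out. Of the 30 highest genes without mitochondrial and ribosomal ones, 20, 13 and 24 were kept under the 3 lengths. None of the 728 list genes passed from expressed to silent or back, but the expressed call changed for 16, 17 and 4 under these lengths and for 34 and 22 under lower and higher thresholds. Without the length of each transcript as quantified, levels of different genes are less certain than those of 1 gene between libraries. The comparison of promoter CpG between classes was not run, because the promoter table covered too few genes. No paired analysis was possible because only 1 group was used.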

Other observations

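Genes of mucosal secretory epithelium, a group picked after its values were seen, were expressed in 12 of 16 cases, against 60.2% of all protein-coding genes. AGR2, an ER protein that folds mucins, stood at 664, 574 and 273 TPM and was lowest in replicate 3. The protease inhibitor PI3 ran the other way, at 88.8, 138 and 209 TPM. The gel-forming mucin MUC5B had 138 ± 23.2 TPM (SD, n = 3) and MUC5AC 2.74 ± 0.467 TPM, while MUC6 was silent. The trefoil peptides TFF1, TFF2 and TFF3, which guard mucosal surfaces, had 73.1 ± 6.94, 33.9 ± 3.22 and 11.9 ± 1.34 TPM. The gastric genes ANXA10 and GKN2 had 142 ± 6.73 and 18.2 ± 7.41 TPM, while GKN1 was silent and AGR3 had no counts.

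Of 37 keratins 9 were expressed and 28 were low or silent, whereas 60.2% of all protein-coding genes were expressed. KRT81 led at 1079 ± 186 TPM and was lowest in replicate 1. Its near-identical neighbour KRT86 was given 8.68 ± 2.63 TPM, so the split of reads between them is uncertain. KRT10, a keratin of differentiated epidermis, had 28.3 ± 5.23 TPM, and its epidermal partner KRT1 had no counts. KRT80 and KRT7 had 6.69 ± 0.456 and 4.37 ± 0.670 TPM.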
